A study of Rattus norvegicus with 3 samples.

Results

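Proliferating medullary epithelial cells were the 76 cells that the authors labelled TEC:mTEC-prol in a library of thymic stroma from 8-week-old Lewis rats. A cell's label was the one the authors projected onto it, or its initial cluster where none was projected. The 76 cells made up 0.575% of the 13226 annotated stromal cells (95% interval 0.453 to 0.719) and 3.31% of the 2295 cells with an epithelial label. They were compared with the 482 cells labelled mTEC1 and the 61 labelled mTEC2. The stroma was released from the thymus with Liberase TH and DNase I and depleted of CD45-positive cells with magnetic beads and a flow sorter. The labels do not give the number, sex or genotype of the animals, beyond the strain. A library of thymocytes and a Stereo-seq section, also from 8-week-old Lewis rats, which counts transcripts in place on a slice of thymus, served for comparison. With 1 library of each kind, no difference between cell types has a replicate, and no test was made. Intervals in brackets are exact 95% intervals that cover counting error only.

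Medullary thymic epithelial cells show developing T cells samples of the body's own proteins, so that self-reactive T cells are removed or turned into regulatory cells. They are usually divided into an immature group that makes the chemokine Ccl21 and carries basal keratins, and a mature group that makes the regulator Aire and much MHC class II. Signals from thymocytes through the receptors RANK and CD40 drive maturation. A dividing cell first copies its DNA with the replication fork and nucleotide-supply enzymes, and then builds a spindle and separates its chromosomes with cyclin B, the anaphase-promoting complex and the centromere proteins.

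The 76 cells held 1367085 unique molecular identifiers (UMIs, each a counted transcript). A cell held between 1297 and 37906 UMIs, with a median of 16804.5, against medians of 11915.5 in mTEC1 and 13378 in mTEC2. Its median number of detected genes was 4821.5, and its median mitochondrial share 0.785%. Of the authors' clusters, TEC-d held 70 of the 76 cells, together with 232 mTEC1 and 57 mTEC2 cells, TEC-b held 5 and TEC-a held 1. The 2 libraries shared 38 barcodes, and 0 of them were mTEC-prol cells. No doublet caller was run.

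Of the 3 markers of the label, Mki67 and Epcam were found in most of its cells and Aire in a minority. Mki67, a protein of dividing nuclei, had UMIs in 57 of the 76 cells. Epcam, a surface protein of epithelial cells, had UMIs in 72, and the basal keratin Krt5 in 75. Aire had UMIs in 24. Levels below are counts per 1000000 UMIs of the label (CPM). Mki67 stood at 348 CPM, against 29.1 in mTEC1, a ratio of 12.0 (10.1 to 14.3), and 74.3 in mTEC2, a ratio of 4.69 (3.61 to 6.17). Thinned to 4000 UMIs a cell, 55.6% of 72 mTEC-prol cells held an Mki67 UMI, with 4 shallower cells left out, against 7.27% of 440 mTEC1 cells (42 left out), 15.4% of 52 mTEC2 cells (9 left out) and 1.25% of 7854 fibroblasts (362 left out). Unthinned, these shares were 75.0%, 17.6%, 29.5% and 2.46%, at a median fibroblast depth of 9006.5 UMIs.

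The genes of mitosis were higher in mTEC-prol than in both other medullary types. The label names proliferating cells, and its marker Mki67 is in the mitosis list. Higher mitosis and replication genes thus follow in part from how the cells were chosen, and the values describe the label. In a list of 46 spindle, centromere and cyclin B genes, all 46 were at least 2-fold higher than in mTEC1, where 8.63% of the 12382 genes with 30 or more UMIs over both types were that much higher. Counts given of a list are over all its members, also those under this minimum, unless said otherwise, and medians over those that met it. The median log2 ratio of the list was 4.30, against -0.00 over all genes compared. Against mTEC2, 44 of the 46 were at least 2-fold higher, beside 12.0% of 9350 genes, and the median was 3.36 over the 45 that met the minimum, against 0.19 over all genes. Summed, the list made up 6049 CPM, which was 12.8 times the 473 CPM of mTEC1 (12.3 to 13.3) and 7.73 times the 783 CPM of mTEC2 (7.15 to 8.37).

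Cenpf, a kinetochore protein that accumulates before division, had 1122 UMIs in mTEC-prol. It stood at 821 CPM, against 35.4 in mTEC1 and 43.4 in mTEC2, with ratios of 23.2 (20.1 to 26.8) and 18.9 (13.7 to 26.9). Among the labels with 20 or more cells, mTEC-prol had the highest Cenpf. Cdc20, which activates the anaphase-promoting complex, stood at 185 CPM, against 6.37 and 5.71. Ccnb1, the cyclin that drives entry into mitosis, stood at 140 CPM, against 4.04 and 5.71. The 3 genes were at low levels in both mTEC1 and mTEC2, of which 417 of 482 and 47 of 61 cells had fewer than 10 mitosis UMIs. Pttg1, securin, which delays the separation of sister chromatids until anaphase, stood at 304 CPM, against 11.5 in mTEC1 and 36.6 in mTEC2. Cks2, a partner of the cyclin-dependent kinases, stood at 326 CPM, against 42.7 and 90.3. Top2a, the topoisomerase that untangles chromosomes, stood at 142 CPM, against 7.46 and 8.0, and was found in 28 of the 76 cells. Cks2 thus had the smallest distance from mTEC2 of these 6 genes, with a ratio of 3.61 (2.84 to 4.65). Ube2c, the ubiquitin-conjugating enzyme of the anaphase-promoting complex, stood at 126 CPM, but 76 of its 172 UMIs lay in 1 cell. Without that cell it stood at 71.7 CPM, 28.8 times mTEC1 and 8.96 times mTEC2.

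**Figure D1:**
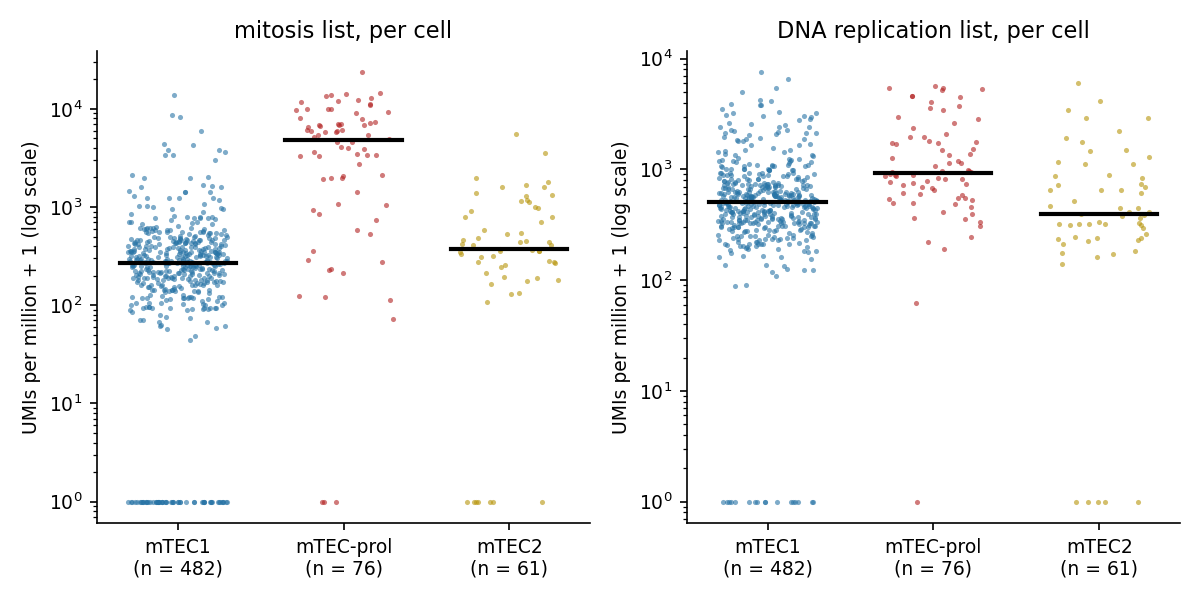
Each point is 1 cell, and the vertical axes give the summed UMIs per 1000000 plus 1, on a log scale, of the mitosis list and the DNA replication list in mTEC1, mTEC-prol and mTEC2. The median mitosis level is 4762 CPM in mTEC-prol, against 266 in mTEC1 and 373 in mTEC2, while the replication levels overlap more, with medians of 925, 503 and 392.

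DNA replication was higher too, by less. Of 36 genes of the replication fork and nucleotide supply, 23 were at least 2-fold higher than in mTEC1 (22 of the 35 that met the minimum). Against mTEC2, 16 were (12 of 29), and none was that much lower than either. Of all genes compared, 8.63% were that much higher than in mTEC1 and 12.0% than in mTEC2. Over the members that met the minimum, the median log2 ratio was 1.22 against mTEC1 and 0.88 against mTEC2. Over all genes compared it was -0.00 and 0.19. The list summed to 1607 CPM, against 753 in mTEC1, a ratio of 2.13 (2.03 to 2.25), and 944 in mTEC2, a ratio of 1.70 (1.57 to 1.85). Tyms, thymidylate synthase, stood at 111 CPM, against 34.2 in mTEC1 and 56.0 in mTEC2. Pcna, the sliding clamp of the replication fork, stood at 112 CPM, against 52.9 and 58.3. Their ratios to mTEC2 were 1.99 (1.43 to 2.80) and 1.92 (1.39 to 2.69), just under 2-fold. Clspn, which signals from stalled forks, stood at 31.5 CPM, against 4.20 and 4.57, and Cdc45, a part of the replicative helicase, at 27.1, against 5.29 and 5.71. These low-level genes thus stood further from both types than Tyms and Pcna did. The B cell label of the same library had more of both programmes than mTEC-prol, at 9988 CPM of mitosis and 4884 CPM of replication transcripts. In the thymocyte library, the label DP-P held 13263 CPM of mitosis and 5845 CPM of replication transcripts, and DN held 5448 and 6340.

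Chromatin and tubulin genes were higher as well. Of 14 such genes, 11 were at least 2-fold higher than in mTEC1 and 12 than in mTEC2, beside 8.63% and 12.0% of all genes compared. Hmgb2, a chromatin protein of dividing cells, stood at 991 CPM, against 85.7 in mTEC1 and 176 in mTEC2. H2ax, the histone variant marked at DNA breaks, stood at 146 CPM, against 22.9 and 16.0. Of 16 DNA repair genes, 9 of the 15 that met the minimum were at least 2-fold higher than in mTEC1. Against mTEC2, 3 of the 13 that met it were. Of 14 ribosome biogenesis genes, 1 was at least 2-fold higher than in mTEC1 and 2 than in mTEC2, shares near those of all genes. Of the 14, 12 and 13 were above a ratio of 1, where the median log2 ratio of all genes was -0.00 and 0.19. That list summed to 2628 CPM, against 1794 in mTEC1 and 1710 in mTEC2, with medians of 0.59 and 0.68. Of 14 glycolysis genes, 1 was at least 2-fold higher than in each, which is no more than the share of all genes, with medians of 0.16 and 0.21.

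Among 27 regulators of the cycle, which are cyclins, kinases, inhibitors and transcription factors such as E2F and Myc proteins, 12 were at least 2-fold higher than in mTEC1 and none as much lower. Of the 23 that met the minimum, 8 were higher, beside 8.63% of all genes compared. Against mTEC2, 9 were higher and 3 lower. Of the 19 that met the minimum, 4 were higher, beside 12.0% of all genes compared. Most of the 9 higher ones thus rested on genes with few UMIs. The 3 lower ones are a share near that of all genes. Ccnd2, a cyclin of entry into the cycle, stood at 230 CPM, above the 75.4 of mTEC1 and below the 348 of mTEC2. Cdkn2a, which encodes the inhibitors p16 and p19Arf, stood at 57.8 CPM, 7.15 times the 8.08 of mTEC1 (4.97 to 10.3) and 0.257 times the 225 of mTEC2 (0.195 to 0.335). Cdkn1a, the inhibitor p21, stood at 32.2 CPM, beside 32.6 in mTEC1 and 104 in mTEC2. Both inhibitors thus stood highest in mTEC2 of the 3 types. The inhibitor Cdkn1c had 128 of its 156 UMIs in 1 cell and stood at 20.7 CPM without it.

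**Figure D2:**
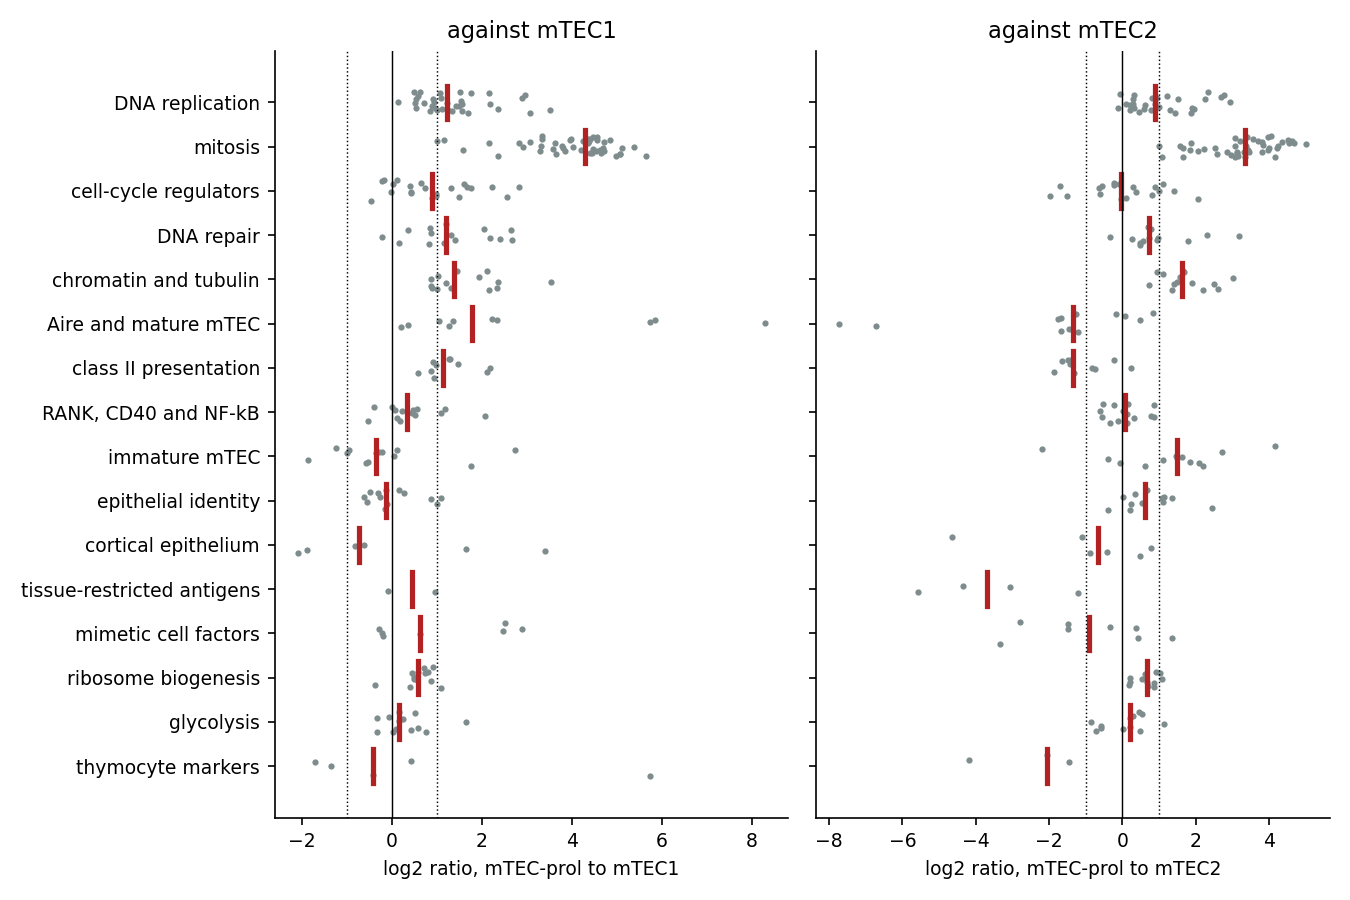
Each point is 1 gene with 30 or more UMIs over both types, placed by its log2 ratio of mTEC-prol to mTEC1 on one panel and to mTEC2 on the other, in rows by gene list, with a bar at each list's median. Of the lists shown, mitosis has the highest median on both panels, 4.30 and 3.36, and the class II median is 1.14 against mTEC1 and -1.36 against mTEC2.

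The genes whose CPM followed the summed replication and mitosis lists most closely over the 24 labels with 20 or more cells were named by their Pearson correlation, among genes in no list. Cep55, which acts in the final cut between daughter cells, had r = 0.966 and stood at 82.7 CPM in mTEC-prol. Pclaf, a PCNA-binding protein, had r = 0.957 and 167 CPM. Cdkn3, a phosphatase acting on Cdk1, had r = 0.923 and 214 CPM, and Ran, the GTPase of nuclear transport and spindle assembly, had r = 0.930 and 778 CPM. The labels share 1 library and differ in depth, so that these correlations only describe it.

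The mitosis and replication genes also differed in promoter sequence, and 6 promoters are printed because their genes have the motifs that separate the 2 lists. The sequences come from RefSeq in the build GRCr8, which is not the build mRatBN7.2 of the counts, and were matched by gene symbol. Each is the 150 bases directly upstream of the annotated start, read 5′ to 3′ on the gene's strand. Capitals mark TTTGAA (the cell-cycle genes homology region) and CCAAT (the box bound by NF-Y) in the first 3, TTTGGCGC or TTTCCCGC (forms of the E2F site) in the others, and CCAAT wherever present, each on either strand.
Mki67: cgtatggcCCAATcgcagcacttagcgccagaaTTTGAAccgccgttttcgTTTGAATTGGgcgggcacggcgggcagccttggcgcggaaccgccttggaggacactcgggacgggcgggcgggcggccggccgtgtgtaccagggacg
Cks2: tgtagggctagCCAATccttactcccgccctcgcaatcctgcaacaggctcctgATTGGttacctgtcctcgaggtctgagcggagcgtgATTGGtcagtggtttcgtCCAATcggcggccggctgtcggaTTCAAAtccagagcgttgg
Pttg1: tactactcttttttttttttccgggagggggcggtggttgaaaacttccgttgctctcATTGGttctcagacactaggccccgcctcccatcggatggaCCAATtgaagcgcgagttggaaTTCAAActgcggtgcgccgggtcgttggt
Tyms: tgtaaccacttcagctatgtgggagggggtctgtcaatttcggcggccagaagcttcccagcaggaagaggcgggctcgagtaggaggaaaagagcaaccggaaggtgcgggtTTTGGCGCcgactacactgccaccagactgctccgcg
Hells: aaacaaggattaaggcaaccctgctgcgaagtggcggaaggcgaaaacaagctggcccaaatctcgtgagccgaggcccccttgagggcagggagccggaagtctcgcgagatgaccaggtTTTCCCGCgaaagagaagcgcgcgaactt
Mcm6: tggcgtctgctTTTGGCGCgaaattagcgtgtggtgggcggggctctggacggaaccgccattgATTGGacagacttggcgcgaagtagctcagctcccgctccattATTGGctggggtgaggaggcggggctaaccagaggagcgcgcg
They lie at chr1:199952594-199952743, chr17:13727520-13727669, chr10:28406327-28406476, chr9:120776084-120776233 and chr13:42404353-42404502 on the minus strand and, for Hells, at chr1:246113979-246114128 on the plus strand. Hells is a chromatin remodeller and Mcm6 a subunit of the replicative helicase. Counted back from the start, TTTGAA begins at base -117 and at base -99 of Mki67, and the latter shares 1 base with a CCAAT box. In Cks2 and Pttg1 it lies on the other strand, at bases -19 and -29. The E2F form begins at base -37 in Tyms, at -29 in Hells and at -139 in Mcm6.

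Over the 250 bases upstream, both strands, 23 of the 40 mitosis genes with a RefSeq promoter (57.5%) held TTTGAA, against 3 of 31 replication genes (9.68%) and 17.2% of 27457 genes in all. An E2F form was in 0 of the 40 mitosis promoters, in 9 of the 31 replication promoters (29.0%) and in 1.34% of all genes. CCAAT was in 32 of 40 mitosis promoters (80.0%), 17 of 31 replication promoters (54.8%) and 36.1% of all genes. It was not particular to the cycle, being in 8 of 9 class II presentation promoters (88.9%). A match only says that the letters are in the window.

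Within the label, cells ranged from none to much of each programme. The mitosis list ran from 0 to 23557 CPM per cell and the replication list from 0 to 5635. In 17 of the 76 cells (22.4%) there were fewer than 10 mitosis UMIs, and 14 of these also had fewer than 10 replication UMIs. Those 17 cells had a median depth of 8851 UMIs, against 21894 in the other 59. Of the 76 cells, 21 held more replication than mitosis UMIs, against 339 of 482 mTEC1 and 29 of 61 mTEC2 cells. Only 4 mTEC1 cells and 1 mTEC2 cell reached the median mitosis level of mTEC-prol. No cell was assigned to a phase.

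Genes of the mature medullary cell lay between mTEC1 and mTEC2. Of 13 genes of the Aire-expressing stage, 10 met the minimum against mTEC1. Of these, 8 were at least 2-fold higher than in mTEC1, beside 8.63% of all genes compared. Against mTEC2, 8 of the 12 that met the minimum were at least 2-fold lower, beside 12.1% of all genes compared. Aire, which releases transcription of tissue-restricted genes, had 201 UMIs in mTEC-prol, 3 in mTEC1 and 410 in mTEC2. That was 147 CPM, against 0.466 in mTEC1, a ratio of 315 (106 to 1542), and 468 in mTEC2, a ratio of 0.314 (0.264 to 0.372). Thinned to 4000 UMIs, an Aire UMI was in 14 of 72 mTEC-prol cells (19.4%, 11.1 to 30.5), 1 of 440 mTEC1 cells (0.227%), 29 of 52 mTEC2 cells (55.8%) and 0.140% of fibroblasts. Unthinned, the shares were 31.6%, 0.622%, 65.6% and 0.353%. Aire was thus above the fibroblast share in mTEC-prol and mTEC2.

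Fezf2, another regulator of self-antigen expression, was as high as in mTEC2, with 244 CPM against 232 and a ratio of 1.05 (0.882 to 1.26). It stood at 52.2 CPM in mTEC1. Cd80, a costimulatory ligand for T cells, stood at 51.2 CPM, between 19.9 and 118. Cd86, its relative, had 28 of its 37 UMIs in 1 cell and is not described further. The chemokines of the mature stage were nearly missing. Ccl22, a ligand of CCR4, had 5 UMIs, or 3.66 CPM, beside 2.80 in mTEC1 and 771 in mTEC2, a ratio to mTEC2 of 0.00474 (0.00153 to 0.0111). Ccl17, another CCR4 ligand, had 0 UMIs in mTEC-prol, 3 in mTEC1 and 204 in mTEC2, a ratio to mTEC2 of at most 0.00942 with 3 UMIs in place of 0.

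MHC class II genes followed the same order. Of 11 genes of the pathway, 10 met the minimum in each comparison. Of these, 5 were at least 2-fold higher than in mTEC1, beside 8.63% of all genes compared. Against mTEC2, 6 were at least 2-fold lower, beside 12.1%. Cd74, the invariant chain, stood at 3877 CPM, between 2103 and 9719. RT1-Da, a class II alpha chain, stood at 2153 CPM, between 871 and 6720. Ciita, the transactivator of the class II genes, stood at 32.9 CPM, between 7.62 and 58.3. Near-identical class II chains can share reads, and how these were counted is not given in the sources used here.

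The receptors of maturation signals were at mTEC2 levels. Tnfrsf11a, the receptor RANK, stood at 218 CPM, against 51.3 in mTEC1 and 276 in mTEC2. Cd40 stood at 174 CPM, against 76.8 and 189. Of 14 genes of RANK, CD40 and NF-kB signalling, 3 were at least 2-fold higher than in mTEC1, beside 8.63% of all genes compared. None differed by 2-fold from mTEC2, where 12.0% of all genes were higher and 12.1% lower. Tnfrsf11b, the decoy receptor that binds the RANK ligand, stood at 459 CPM, against 90.3 and 516.

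Genes of the immature medullary cell summed to 15916 CPM, between the 25531 of mTEC1 and the 3265 of mTEC2. Of 14, 13 met the minimum in each comparison. Of these, 2 were at least 2-fold higher and 2 lower than in mTEC1, beside 8.63% and 12.7% of all genes. Against mTEC2, 9 were higher and 1 lower, beside 12.0% and 12.1%. The lower counts are shares near those of all genes. Ccl21, which draws thymocytes into the medulla, stood at 6515 CPM, against 12495 in mTEC1 and 362 in mTEC2. Krt14, a basal keratin, stood at 1549 CPM, against 3622 and 234, and Tp63, a regulator of basal epithelium, at 244, against 294 and 57.1. Fibroblasts held Ccl21 UMIs as well: thinned to 4000 UMIs, 66.7% of mTEC-prol, 67.5% of mTEC1, 40.4% of mTEC2 and 39.3% of fibroblast cells held one, and 85.5%, 78.4%, 73.8% and 59.6% unthinned. A share alone thus does not separate mTEC2 from fibroblasts.

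Tissue-restricted antigens were far below mTEC2. The list of 21 summed to 87.0 CPM, against 56.3 in mTEC1 and 518 in mTEC2, and 13 of its genes had no UMI in mTEC-prol. Ins2, an insulin gene, stood at 22.7 CPM, against 23.9 in mTEC1 and 189 in mTEC2. Apoa1 and Csn2, genes of liver and mammary gland, had 0 UMIs, against 92 and 39 in mTEC2. Of 20 genes of mimetic cells, which are medullary cells that take on features of other tissues, mostly their transcription factors, 8 had no UMI. Of those without a UMI, Myod1, Foxi1, Neurod1 and Ptf1a had none in mTEC2 either. Against mTEC1, 3 of the 7 that met the minimum were at least 2-fold higher and 0 lower, beside 8.63% and 12.7% of all genes compared. Against mTEC2, 1 of 8 was higher and 4 were lower, beside 12.0% and 12.1%. Insm1, a neuroendocrine factor, stood at 133 CPM, against 17.7 and 167, and Spib, a factor of microfold cells, at 106, against 19.0 and 82.3. Myog stood at 10.2 CPM, against 70.8 in mTEC2, and Hnf4g at 16.8, against 46.8.

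Grouped by Aire and Ccl21, the 76 cells held unlike levels of the mature and immature genes. The grouping was chosen after the values were seen, and it divides a range. In all, 24 cells held an Aire UMI, 4 of them exactly 1, and 35 held Ccl21 at 1000 CPM or more, and 2 cells did both. The remaining 33 Ccl21 cells had no Aire UMI, and 19 cells met neither mark, 5 of them in cluster TEC-b. Ccl21 lay from 500 to under 2000 CPM in 10 cells. The median depth was 24196.5 UMIs in the 24 Aire cells, 15242 in the 33 Ccl21 cells and 11868 in the 19 others.

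Mitosis transcripts were in both groups: 20 of the 24 Aire cells and 27 of the 33 Ccl21 cells held 10 or more mitosis UMIs, as did 12 of the 19 others. Their summed mitosis levels were 5228 and 7795 CPM, and Mki67 stood at 295 and 418. Replication stood at 1638 and 1379 CPM. Of the 46 mitosis genes, none was at least 2-fold higher in the Aire cells and 10 were at least 2-fold lower, beside 10.2% and 14.7% of the 6273 genes compared.

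**Figure D3:**
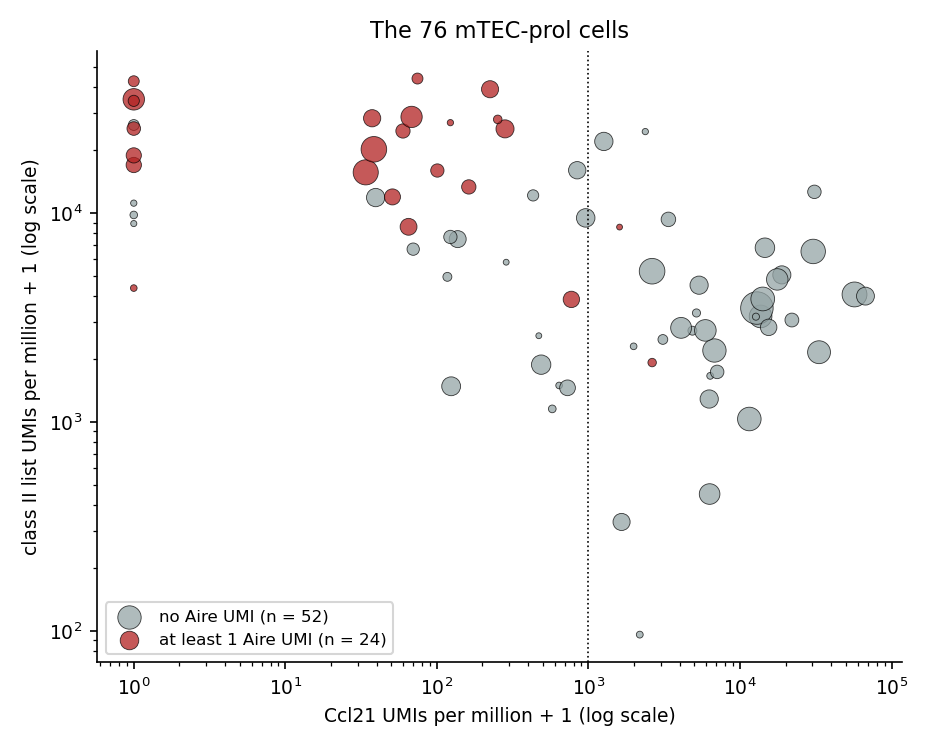
Each point is 1 of the 76 mTEC-prol cells, with Ccl21 on the horizontal and the summed class II genes on the vertical axis, both as UMIs per 1000000 on log scales, and cells with an Aire UMI marked. Cells with much Ccl21 tend to hold less class II, with a Pearson r of -0.553 over the 76 cells, given as a description.

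Class II genes were higher in the Aire cells by 2-fold or more in 9 of the 11 members, the other 2 being under the minimum, and summed to 23264 CPM against 4793 in the Ccl21 cells. For comparison, mTEC2 held 33307 and mTEC1 6115. Cd74 stood at 6743 CPM in the Aire cells and 1788 in the Ccl21 cells, and Ciita at 79.7 and 1.71. The Aire cells thus lay near mTEC2 and the Ccl21 cells near or below mTEC1 for these genes. Krt14 showed the reverse, with 379 CPM in the Aire cells and 2097 in the Ccl21 cells, beside 234 in mTEC2 and 3622 in mTEC1. Tp63 stood at 57.8 and 391. Cdkn2a was also divided, at 147 and 5.12 CPM, with UMIs in 17 of 24 and 2 of 33 cells. Ccnd2 stood at 436 and 81.9 CPM. Both regulators thus lay with the Aire cells, as they lay with mTEC2 above.

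Fezf2 was in both groups, and chemokines of the mature stage were nearly missing from both. Fezf2 stood at 387 CPM in the Aire cells and 140 in the Ccl21 cells, both above the 52.2 of mTEC1. Ccl22 had 0 UMIs in the Aire cells and 2 in the Ccl21 cells, beside 771 CPM in mTEC2, and Ccl17 had 0 in both. Ins2 stood at 12.0 and 27.3 CPM, beside 189 in mTEC2. The Aire cells, which were chosen for holding Aire, thus had far less Ccl22, Ccl17 and Ins2 than mTEC2.

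**Figure D4:**
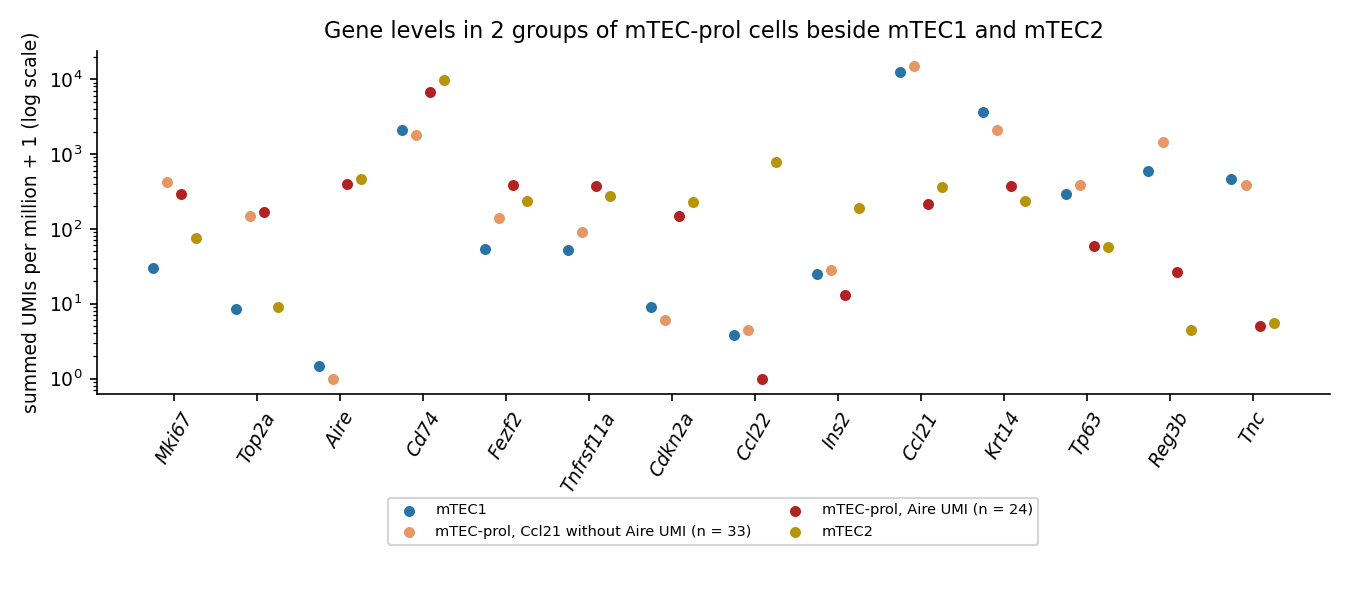
Summed UMIs per 1000000 plus 1, on a log scale, of named genes in mTEC1, in the mTEC-prol cells with much Ccl21 and no Aire UMI, in those with an Aire UMI, and in mTEC2. Cd74 and Cdkn2a are high in the Aire cells and mTEC2, and Krt14 and Tp63 in the Ccl21 cells and mTEC1. Of the 4, Ccl22 is high in mTEC2 alone. Aire is high in mTEC2. Its presence in the Aire cells and absence from the Ccl21 cells follow from how these cells were chosen.

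Markers of other cell types differed between these groups. Thymocyte markers summed to 83.7 CPM in the Aire cells and 20.5 in the Ccl21 cells, myeloid markers to 153 and 5.12, and fibroblast markers to 197 and 464. Of the 42 thymocyte marker UMIs in the Aire cells, 31 were Ptcra, which the list of the Aire-expressing stage holds too. Much of this lay in single cells: without the 1 cell of each group that held most, thymocyte markers stood at 42.1 and 18.0 CPM, myeloid markers at 48.5 and 3.49, and fibroblast markers at 182 and 189. Over 6000 genes were found in 9 of the 24 Aire cells, 10 of the 33 Ccl21 cells and 4 of the 19 others. The part of these in the differences was not tested.

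The genes with the largest ratios included both mitosis genes and genes of 1 group. Among genes with 100 or more UMIs in the higher type and UMIs in at least 25% of its cells, Aire led those higher than in mTEC1. Cyp26a1, which breaks down retinoic acid, followed with 206 CPM and a ratio of 166 (83.0 to 388). Bcl2a1, an inhibitor of apoptosis, stood at 443 CPM, with a ratio of 98.2, and Cd83, an activation marker of antigen-presenting cells, at 129, with 63.7. Tnfrsf9, the receptor 4-1BB, stood at 173 CPM, with a ratio of 61.7, and the tight-junction gene Cldn7 at 91.4, with 45.2. These 5 genes were higher still in mTEC2: Cyp26a1 at 404 CPM, Bcl2a1 at 1043, Cd83 at 488, Tnfrsf9 at 339 and Cldn7 at 159. Ube2c and Hmmr, a spindle protein, were the mitosis genes among the 8, with Hmmr at 195 CPM in the Aire cells and 232 in the Ccl21 cells. Aire apart, the other 5 lay mostly in the Aire cells: Cyp26a1 at 530 CPM there and 1.71 in the Ccl21 cells, Bcl2a1 at 1130 and 1.71, Cd83 at 297 and 15.4, and Tnfrsf9 at 406 and 18.8. Cldn7 had 114 UMIs in the Aire cells and 0 in the Ccl21 cells, at least 44.4-fold higher with 3 UMIs in place of 0. Lowest against mTEC1 was the cadherin Fat3, with 4 UMIs against 375. Igfbp5 and Mgp, genes that fibroblasts also make, stood at 70.2 and 68.0 CPM, with ratios of 0.0665 and 0.0749. Fibroblast markers summed to 320 CPM in mTEC-prol, against 2918 in mTEC1 and 3322 in mTEC2, and their part in these 2 ratios was not tested.

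Against mTEC2 the 8 genes with the largest ratios were of several kinds. The mitosis genes Cdc20, Cenpe, which moves chromosomes on the spindle, and Ccnb1 were high in both groups, for example Cdc20 at 128 CPM in the Aire cells and 271 in the Ccl21 cells. Tnc, Acta2, Reg3b and its relative Reg3a lay mostly in the Ccl21 cells. In mTEC1, Tnc stood at 464 CPM, Acta2 at 751 and Reg3a at 632, above the 192, 402 and 168 of mTEC-prol. Reg3b stood at 594 CPM in mTEC1. Tnc, a matrix glycoprotein, had 262 UMIs in mTEC-prol against 4, and stood at 389 CPM in the Ccl21 cells and 3.98 in the Aire cells. Acta2, smooth muscle actin, had 550 against 13 UMIs, and stood at 788 and 41.8 CPM. Reg3b, an antimicrobial lectin, had 876 against 3 UMIs, of which 494 lay in 1 cell, and it stood at 641 CPM with that cell and 286 without it. S100a8, a calcium-binding protein of neutrophils, had 704 of 736 UMIs in 1 cell. Its ratio to mTEC2 was 27.7, and 1.23 without the mTEC-prol cells that carried 10 or more myeloid or 50 or more fibroblast marker UMIs. The high S100a8 was thus a value of 1 cell. Lowest were Ccl22, Tfap2b, a transcription factor, with 3 against 247 UMIs, and Tph1, the first enzyme of serotonin synthesis, with 1 against 240.

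Markers of other lineages were scarce in mTEC-prol. Thymocyte markers had 61 UMIs, or 44.6 CPM, against 40.3 in mTEC1, 190 in mTEC2 and 7064 in the Thymocyte label. Cd3d and Rag1 were at 0, and 34 of the 61 UMIs were Ptcra, 22 of them in 1 cell. Myeloid markers had 84 UMIs, 54 in 1 cell, with Csf1r at 0. They stood at 61.4 CPM, above the 10.1 of mTEC1 and below the 315 of mTEC2. B-cell markers had 30 UMIs, 17 in 1 cell, with Ms4a1 at 0, or 21.9 CPM against 0.622 and 30.8. Endothelial markers had 37 UMIs, with Pecam1 and Cdh5 at 0, or 27.1 CPM against 41.4 and 50.3. Erythroid markers had 23 UMIs, 17 of them in 1 cell, or 16.8 CPM against 1.87 and 72.0. Fibroblast markers had 437 UMIs, 163 in 1 cell. The cortical list of 8 summed to 1233 CPM, against 1963 in mTEC1, 2134 in mTEC2 and 8816 in cTEC, the cortical label. The thymoproteasome gene Psmb11 was at 0, as in mTEC2.

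On the section, mTEC-prol was the commonest epithelial first label in 20-unit bins. The authors' decomposition (RCTD) gave bins of 20 units, nominally 10 µm, up to 3 labels each, drawn from the single-cell types. A bin can hold parts of several cells. Of 592087 bins with a label, 7579 had mTEC-prol first, against 6562 for mTEC2, 4168 for mTEC1 and 3334 for cTEC. In the stromal library, by contrast, mTEC-prol was outnumbered by mTEC1, with 76 against 482 cells. Segmented cell bins had 11857 with mTEC-prol and 10177 with mTEC2 first, but among confident first labels of cell bins mTEC2 was the commoner, with 5400 against 4938. The shares are of bins and of dissociated cells, so that no direction is read between them.

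The label was a larger share of medullary than of cortical bins. It was first in 0.651% of capsular and 0.631% of cortical bins. In the 2 medullary regions that the authors call mECA and mEFA, it was first in 9.39% (9.10 to 9.67) and 2.18% of bins. How the regions were drawn is not given in the sources used here. The medullary share was 7.04%, 11.2 times the cortical one (10.6 to 11.7), against 11.3 for mTEC1 and 13.4 for mTEC2. The interval treats bins as independent, although neighbouring bins share RNA. Among bins with 1 label the medullary share was 2.56 times the cortical one (1.04 to 6.35), and among confident first labels 27.7 times, then above the 24.1 of mTEC1 and the 25.4 of mTEC2. The mEFA share was 0.232 of the mECA share (0.210 to 0.257), as for mTEC2 with 0.227, while mTEC1 had 0.577 (0.521 to 0.638). In segmented cell bins these ratios were 0.259, 0.359 and 0.485, so that the likeness to mTEC2 was seen in 20-unit bins only.

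**Figure D5:**
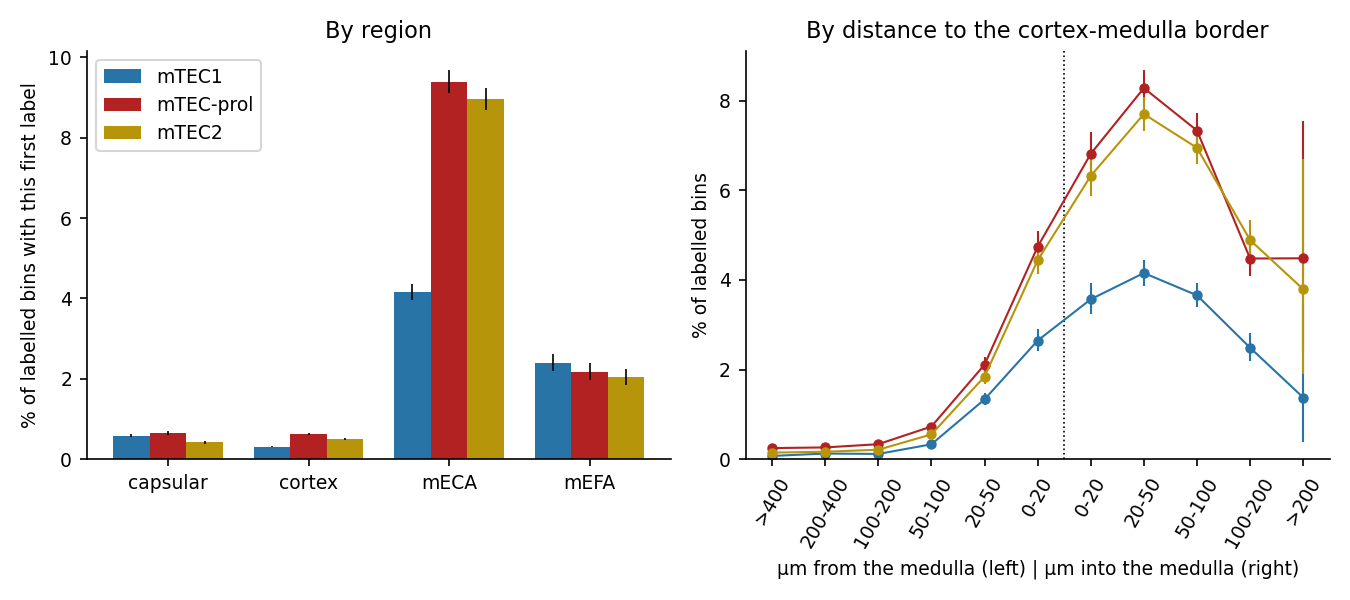
The left panel gives the percent of labelled 20-unit bins whose first label was mTEC-prol, mTEC1 or mTEC2 in each region. The right panel gives the same percent by distance in µm, from cortical bins to the medulla and from medullary bins to the nearest tissue outside the medulla. The mTEC-prol share is 9.39% in mECA and 2.18% in mEFA, and falls with distance into the cortex from 4.74% within 20 µm to 0.252% beyond 400 µm.

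Near the edge of the medulla the label was on both sides. Distances inside the medulla are to the nearest tissue bin outside it, of any region, and those in the cortex to the nearest medullary bin. In the medulla its share was 6.81% within 20 µm of the edge and 8.28% from 20 to 50 µm. It was 7.33% from 50 to 100 µm and 4.48% from 100 to 200 µm. In the cortex it was 4.74% within 20 µm, 2.11% from 20 to 50 µm and 0.732% from 50 to 100 µm. In all, 55.3% of the bins with mTEC-prol first were medullary and 34.1% cortical, in a section with far more cortex. In segmented cell bins 42.2% were medullary and 49.4% cortical, and for any label of a 20-unit bin 37.0% and 49.6%. Of the 122 bins with mTEC-prol as the only label, 4.10% were medullary and 58.2% cortical. Of the distance steps, the mTEC-prol share was highest from 20 to 50 µm inside the medulla, as for mTEC1 (4.15%) and mTEC2 (7.70%). Both also fell with distance into the cortex. From within 20 µm to beyond 400 µm, mTEC1 went from 2.65% to 0.0772% and mTEC2 from 4.44% to 0.151%. In the 27 medullary areas of 500 or more bins, its share was 3.77% at the lowest, 8.17% at the median and 13.4% at the highest. It was above mTEC1 in 27 of the 27 and above mTEC2 in 16.

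Bins with mTEC-prol first lay near each other, as those of mTEC1 and mTEC2 did. Within 30 µm of such a bin in mECA, 15.2% of bins had the same label first, against 9.39% of all mECA bins, a ratio of 1.62. Around their own kind the ratios were 1.61 for mTEC1 and 1.79 for mTEC2. For mTEC2 around mTEC-prol the values were 12.7% and 8.96%, a ratio of 1.42, and for mTEC1 4.98% and 4.17%, a ratio of 1.19. Mature SP thymocytes were fewer around mTEC-prol, at 20.7% against 24.3%, a ratio of 0.851. Thymocytes of the labels from DN to DP-sig were fewer still, at 4.22% against 6.61%, a ratio of 0.638. This was shared by the other medullary labels. The same ratios were 0.817 and 0.604 around mTEC2, and 0.965 and 0.719 around mTEC1. Adjacent bins can share the RNA of 1 cell.

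The first label was called confident in 50.5% of mTEC-prol bins, with 41.7% in the cortex and 61.9% in mECA. Those bins held a median of 528 UMIs, against 326 in all bins, and 98.4% had a second label. In mECA that second label was a mature SP thymocyte in 28.7% and an agonist or regulatory T cell in 30.1%. In the cortex it was a thymocyte of the labels from DN to DP-sig in 51.9%, as it was beside 50.7% of cortical mTEC1 and 40.5% of cortical mTEC2 bins. The part of these thymocyte labels, which include dividing cells in the thymocyte library, in the cortical mTEC-prol share was not tested.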

How the data were processed

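Per the file headers, Cell Ranger 8.0.0 gave the deposited UMI counts, with 1 row for each gene in each barcode. The submitters' processing notes name the build mRatBN7.2 and Seurat 5.3.0. The mitochondrial percentage of each cell and the cell labels are the authors' own, as deposited, and how labels were projected is not given in the sources used here. For the section, the authors' deposited table gives counts per bin, a region and up to 3 RCTD labels with their weights, each a fraction of the bin. That table's counting steps are not given in the sources used here.

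UMIs were summed per label and divided by the label's total. Intervals for levels are exact Poisson, those of ratios conditional binomial, and those of shares Clopper-Pearson. A gene was compared where both types together held 30 or more UMIs, and was counted as different at 2-fold or more. A count below 3 was set to 3 UMIs in ratios. Where both counts were that low, the ratio followed the totals of the labels alone. Shares of cells with a UMI were thinned to 4000 UMIs with seed 7, and shallower cells were left out. Cells without a label, 2934 barcodes, entered no sum. No doublet caller was run. The genes named were those of 21 gene lists, the 8 leading genes in each direction and comparison, with at least 100 UMIs and UMIs in 25% of cells of the higher type, and the 8 genes most like the summed replication and mitosis lists across labels. The members and lists were chosen with earlier results of these data known. The summing and ratio steps were tested on simulated counts. Alternatives covered the minimum, fold, depth, scaling and cells. Sums and intervals were computed in Python 3.11.15 with pandas 2.3.3, SciPy 1.17.1 and NumPy 2.4.6, and plots drawn in matplotlib 3.10.9.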

Additional observations from a re-analysis of the deposited data

Results flagged for a closer look

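Among the 2934 stromal barcodes to which the authors gave no label, 67 had more genes than any annotated cell, whose highest was 6999. Of these 67, 12 held 3 or more Epcam UMIs and 50 or more UMIs of the mitosis list, a signal in barcodes that no comparison uses. They held between 35256 and 86404 UMIs, with 71 to 1131 mitosis UMIs each and 6464 CPM of the mitosis list in sum, close to the 6049 CPM of mTEC-prol. An Aire UMI was in 4 of the 12, and Ccl21 reached 1000 CPM in 2. The same marks were met by 78 annotated cells, of which 43 were mTEC-prol, 22 of the B cell label, 5 mTEC1 and 4 mTEC2. In mTEC-prol, 23 of the 76 cells had more than 6000 genes, and without such cells in all 3 types 994 genes were at least 2-fold higher than in mTEC1, against 1068 with them.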

How the results depend on the processing

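Each type rests on 1 library, so no replicate could be left out, and depth limits every low gene: with 76 cells, a gene under 30 UMIs over both types was not compared. None of the results listed here changed direction, but the order of the 3 labels' medullary to cortical ratios varied with the setting. The highest was mTEC2 in the main setting (13.4) and in bins at or above the median UMIs (6.89). It was mTEC1 in segmented cell bins (5.50), for any label of a bin (6.23) and in bins given 1 label (6.62). With confident labels it was mTEC-prol (27.7, against 24.1 for mTEC1 and 25.4 for mTEC2). Genes at least 2-fold higher than in mTEC1 (1068) numbered 674 with cells thinned to 4000 UMIs, 579 with a minimum of 100 UMIs, 7491 with no minimum and 522 at 3-fold. Genes lower than in mTEC1 (1577) numbered 966 thinned, 869 with a minimum of 100 and 711 at 3-fold. Genes higher than in mTEC2 (1119) numbered 527, 450 and 422 under the same 3 settings, and genes lower (1135) 355, 394 and 748, and 3429 with no minimum. With no minimum, genes under 3 UMIs in both types were set to 3 in each, so that their ratio follows the totals alone.

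The replication median against mTEC1 (1.22) was 1.02 thinned, 0.98 in cluster TEC-d alone and 0.96 with a minimum of 100. The mitosis median (4.30) was 4.10 from the mean of the cells' CPM, 4.61 thinned, 3.68 in TEC-d alone, 4.37 with a minimum of 100 and 4.04 without cells of over 6000 genes. The Aire ratio to mTEC1 (315) was 77.4 thinned, and the ratio to mTEC2 (0.314) was 0.251 without cells of over 6000 genes and ran from 0.264 to 0.356 otherwise. The share of mTEC-prol was 3.31% of epithelial labels, and the share with an Aire UMI 31.6% unthinned. Thymocyte markers (44.6 CPM) stood at 19.2 without cells holding 3 or more of their UMIs, 19.8 without Ptcra and 28.5 without cells rich in myeloid or fibroblast markers. On the section, the ratio of medullary to cortical share (11.2) was 6.27 in bins at or above the median UMIs, 2.56 in bins given 1 label, 4.56 in segmented cell bins, 5.13 for any label of a bin and 27.7 for confident labels. The causes were not tested.

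Of the 52 ratios of named genes past 2-fold, 47 stayed past it under every alternative run. The others were Epcam against mTEC2 (1.98 from mean CPM), Rab6b (0.537 in TEC-d), S100a8 against mTEC2 (1.23 without cells rich in other markers), Pcna against mTEC1 (1.93 at the lowest) and Cd40 against mTEC1 (1.70 in TEC-d). The alternatives on cluster TEC-d, on cells rich in other markers, on cells of over 6000 genes, on confident labels and on the cell with most UMIs of a gene were chosen after seeing the data. Labels from the initial cluster alone could not be used, since they name 0 mTEC-prol cells. No paired analysis was possible because each kind of sample has 1 replicate.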
